A study of Caenorhabditis elegans with 2 samples.

Results

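The X-linked promoter peaks are the peaks of eGFP-tagged ZTF-11 on the X chromosome whose summit lay near the start of a protein-coding transcript, at most 1000 bp before or 200 bp after its 5′ end, and more than 500 bp from any tRNA, snoRNA or snRNA gene. They numbered 698 of the 12024 peaks in the list made from both replicates together, and were chosen by position alone. The data are chromatin immunoprecipitation sequencing (ChIP-seq) of whole C. elegans embryos of mixed stages and pooled sexes, from strain OP236. That strain carries unc-119(ed3) on chromosome III and the integrated transgene wgIs236, which supplies the tagged protein, so binding of the tagged protein need not match that of the endogenous one. There was 1 group of 2 libraries, called biological replicates in the labels, with no second condition. All tissues of the embryo contributed to each library, so fewer binding cells and less binding per cell cannot be told apart.

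ZTF-11 is related to vertebrate Myt1, a zinc finger transcription factor known for its part in making neurons. The X chromosome of C. elegans is present in a pair in hermaphrodites and alone in males, and a dosage compensation complex lowers its transcription in hermaphrodites. The ratio of X chromosomes to autosomes is read by X-linked genes that act on xol-1, the switch of sex determination. The X chromosome also holds few genes of the germ line and many of somatic tissues. Many worm transcripts are trans-spliced, so an annotated 5′ end often lies downstream of where transcription starts.

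Sequences reaching 50 bases to each side of the summit are given for 5 of the strongest members, each free of annotated exons, to show the base composition and repeats that the strong summits carried. They were read from the RefSeq WBcel235 assembly, which is the sequence of ce11, and are written 5′ to 3′ on the strand of the gene. The summit window of serp-1.1 was chrX:15841220-15841320 (+ strand) and that of nspc-17 chrX:14525899-14525999 (- strand). The window of hsp-3 was chrX:6092164-6092264 (- strand), that of F09C8.2 chrX:16147883-16147983 (- strand) and that of bet-2 chrX:10568832-10568932 (+ strand). Capitals mark matches on either strand to any of 14 short motifs searched. They fell on GAGAGA in F09C8.2 and bet-2, on GCGTCTC in bet-2, and on TTTTTT and GCGCAGGG in nspc-17, while serp-1.1 and hsp-3 held no match.
serp-1.1: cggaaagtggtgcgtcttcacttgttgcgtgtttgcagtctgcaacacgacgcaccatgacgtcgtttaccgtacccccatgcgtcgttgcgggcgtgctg
nspc-17: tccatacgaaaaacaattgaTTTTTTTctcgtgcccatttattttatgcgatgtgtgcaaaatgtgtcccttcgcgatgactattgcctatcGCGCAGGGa
hsp-3: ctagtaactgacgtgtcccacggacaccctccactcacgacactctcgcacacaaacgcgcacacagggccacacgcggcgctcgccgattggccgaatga
F09C8.2: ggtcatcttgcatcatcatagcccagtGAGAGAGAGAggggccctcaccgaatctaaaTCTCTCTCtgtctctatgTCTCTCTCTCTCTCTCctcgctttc
bet-2: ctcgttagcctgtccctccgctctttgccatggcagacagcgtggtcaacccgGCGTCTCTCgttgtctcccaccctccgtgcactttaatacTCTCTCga

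The strongest member lay 302 bp upstream of serp-1.1, with a signal of 132.6 in the pooled list. Signal is the value the authors' peak caller gave each peak, on a scale that is not stated, and it is used here only within a list. The peak overlapping it had a signal of 63.9 in replicate 1, where it ranked 37, and of 66.2 in replicate 2, where it ranked 16. The next, 768 bp upstream of nspc-17, a gene of a nematode-specific peptide family, had a signal of 125.4 and ranked 16 and 32. The member 90 bp upstream of hsp-3, which encodes the Hsp70 chaperone of the endoplasmic reticulum, had a signal of 124.2 and ranked 20 and 38. These 3 were high in both replicates.

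Below them the replicates were less even. The member of ftt-2, a 14-3-3 gene, had a pooled signal of 105.0 and ranked 14 in replicate 1 but 214 in replicate 2. A second thresholded member of ftt-2, with a signal of 48.8, ranked 123 in replicate 1 and overlapped that same peak of replicate 2. F09C8.2, at 96.2, went the other way, with ranks of 144 and 37. The member of epn-1, the endocytic adaptor epsin, had a signal of 85.3 and ranks of 63 and 148. F57G12.1 followed at 79.4, F13C5.2 at 77.1 and ZC506.1 at 76.7, with ranks between 84 and 155 in the 2 lists.

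The remaining 6 of the 15 strongest lay between 65.6 and 71.5. Among them were puf-9, a Pumilio-family RNA-binding protein, at 71.5, bet-2, a bromodomain protein, at 68.8, and ain-1, a GW182-family protein of microRNA silencing, at 68.2. The others were rpl-11.2, a ribosomal protein, at 66.6, sms-2, a sphingomyelin synthase, at 66.4, and mdl-1, a MAD-like transcription factor, at 65.6. All 15 summits lay upstream of the 5′ end and between protein-coding genes, and each ranked 273 or better in both replicates.

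**Figure D1:**
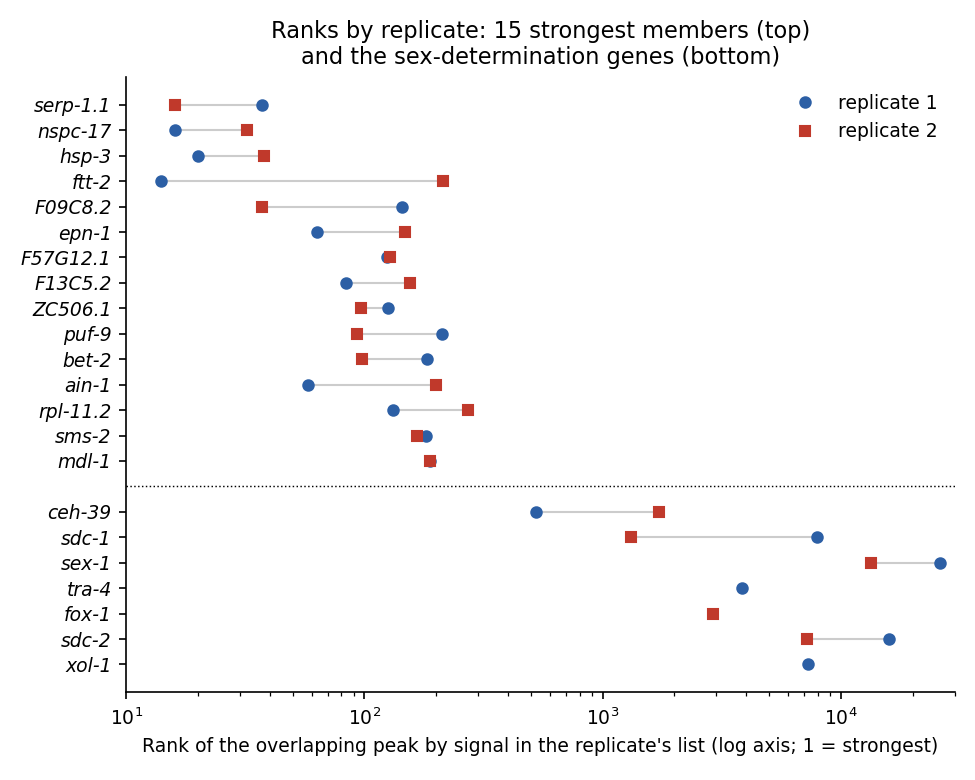
Rank by signal, on a log axis, of the peak that overlaps each member in the list of replicate 1 (circles) and of replicate 2 (squares), for the 15 strongest members and the 7 X-linked genes of sex determination and dosage compensation. The 15 strongest sit at rank 273 or better in both replicates, and the best rank among the sex-determination genes is 523; a missing symbol means that no peak of that replicate overlapped.

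The authors' thresholded list, which keeps peaks by the irreproducible discovery rate, held the 721 strongest pooled peaks, and 79 of the 698 members (11.3%) were in it. Over the whole pooled list the share was 6.00%. Autosomal promoter peaks under the same rule gave 7.75%, and X-linked peaks outside promoters gave 3.90%. Members had a median signal of 16.1 (lowest 12.3, quartiles 13.9 and 21.1), close to the 15.9 of autosomal promoter peaks and above the 14.8 of X-linked peaks outside promoters. The median member stood at percentile 57.0 of all nuclear peaks, beside 55.5 for autosomal promoter peaks. Promoter peaks of single autosomes ran from 49.3 on V to 62.7 on III, with I, at 59.5, and III above the members. With 1 group of 2 libraries no test across samples is possible, and none over regions was run, so these shares are descriptions.

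The members just inside the thresholded list were those of kin-29, a salt-inducible kinase, at 34.07, zipt-7.2, a zinc transporter, at 34.02, and F46H5.4 at 33.97. Just outside it were Y49A10A.2 at 33.84, R03G5.6 at 33.73 and uggt-1, a glycoprotein folding sensor of the endoplasmic reticulum, at 33.48. The values on the 2 sides nearly touch, so membership of that list marks no gap in signal. At the edge of the promoter window, the 47 members 901 to 1000 bp upstream had a median signal of 16.3, with 5 in the thresholded list. The 42 X-linked peaks 1001 to 1100 bp upstream, outside the rule, had a median of 15.7, with 2 in it.

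Where a summit lay in the window of a single gene, 73 of 662 members (11.03%) were thresholded, beside 5.53% of the 2804 autosomal promoter peaks of that kind. Where it lay in the windows of 2 or more genes, 6 of 36 members (16.7%) were thresholded, beside 16.4% of 718 autosomal peaks. Such shared windows were 5.16% of members and 20.4% of autosomal promoter peaks. The higher share on X was therefore in windows of 1 gene. Among the autosomes the share in windows of 1 gene ran from 3.70% on V to 6.51% on I.

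The same count was made in each replicate alone, taking its strongest 12024 peaks and, of these, the strongest 721. In replicate 1, 66 of 579 X-linked promoter peaks in windows of 1 gene (11.4%) were among the 721, beside 5.33% on the autosomes. In replicate 2 the share was 74 of 665 (11.13%), beside 5.49%. The X chromosome had the highest share of any chromosome in both lists, and the next was 6.91% on III in replicate 1 and 8.88% on I in replicate 2. In shared windows the X-linked share was 19.4% in replicate 1 and 12.5% in replicate 2, beside 16.7% and 14.3% on the autosomes, from 31 and 40 X-linked peaks.

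**Figure D2:**
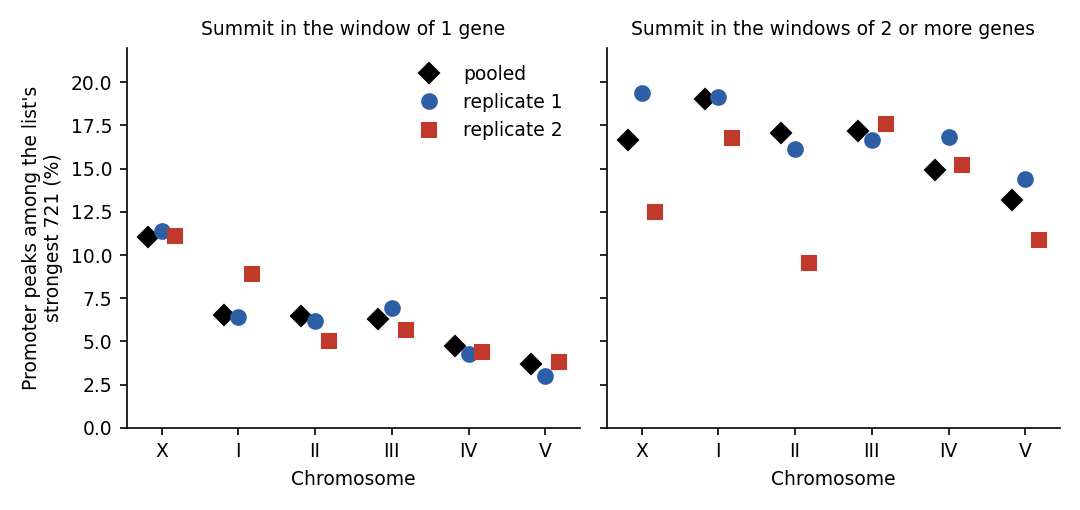
Share of promoter peaks (%) that are among the strongest 721 of their list, by chromosome, for summits in the window of 1 gene (left) and of 2 or more genes (right), in the pooled list (diamonds), replicate 1 (circles) and replicate 2 (squares). In windows of 1 gene the X chromosome stands at 11.03%, 11.4% and 11.13% and each autosome lies lower in all 3 lists; in shared windows X stands at 16.7%, 19.4% and 12.5%, above every autosome in replicate 1 and between them in the other lists.

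Most members were overlapped by a peak of each replicate's list. Each such list held 30000 peaks, and the pooled list uses the reads of both replicates, so these overlaps are no independent check. A peak of replicate 1 overlapped 577 of the 698 and a peak of replicate 2 overlapped 554, with 437 (62.6%) overlapped in both and 4 in neither. The share overlapped in both was 58.8% for all nuclear pooled peaks and 63.1% for autosomal promoter peaks, close to that of the members. Among the strongest 12024 peaks of both replicates were 237 members (34.0%), beside 26.9% of all nuclear pooled peaks and 31.5% of autosomal promoter peaks. Promoter peaks of single autosomes ran from 28.1% on V to 37.2% on III, so III lay above X. All 79 thresholded members were in that group, which is close to how they were chosen, since the thresholded list was made from the same reads. Their ranks reached 4251 in replicate 1, at dhhc-14, and 5186 in replicate 2, at epg-7. Over the 437 members seen in both, Spearman's rho of the 2 signals was 0.50, and over the 79 thresholded members it was 0.38. The 79 were selected by pooled signal, so their rho covers a narrower range and is not comparable with that over all 437. Some members share a replicate peak (48 members share 24 peaks in replicate 1), so these points are not independent.

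**Figure D3:**
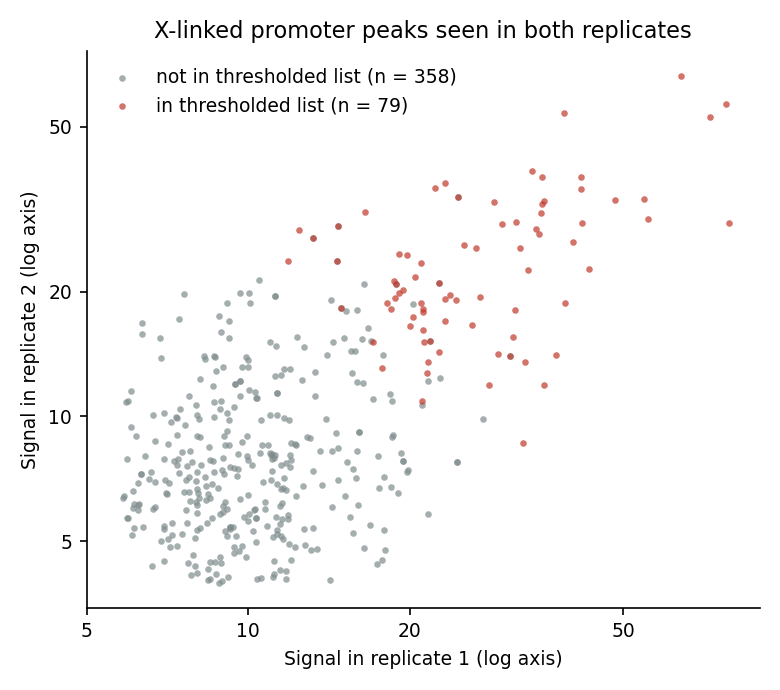
Signal of the overlapping peak in replicate 1 (x axis) and replicate 2 (y axis), both on log axes, for the 437 members overlapped in both replicates, of which 79 are in the thresholded list. Thresholded members lie toward the upper right, as their selection by pooled signal favours. Among the other 358 Spearman's rho of the 2 signals is 0.19, over a range of pooled signal cut by that selection.

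Of the 2731 X-linked protein-coding genes, 631 (23.1%) had a member in their window and 84 (3.08%) had a thresholded one. Autosomal genes had 21.6% and 2.31%, and single autosomes ran from 15.4% on V to 28.3% on I for any peak. For a thresholded peak they ran from 1.14% on V to 3.47% on I, with I and III, at 3.45%, above X. A single member was found in 540 genes, 2 in 80, 3 in 10 and 4 in 1, coh-1, a cohesin kleisin gene, with signals of 26.3, 18.1, 14.9 and 13.4. Genes with several 5′ ends have longer windows. Where the window was the 1201 bp of a single 5′ end position, 18.4% of X-linked genes had a member, and in windows over 4000 bp 64.0% did, so a gene's count depends on its annotated 5′ ends.

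All 7 X-linked genes of the list for sex determination and dosage compensation had a member, and none of the 7 was thresholded, beside the 23.1% and 3.08% of all X-linked genes. ceh-39, a ONECUT homeodomain gene that signals X dose, had the highest at 29.7, with ranks of 523 and 1723. sdc-1, a zinc finger gene of dosage compensation, followed at 20.7 with ranks of 7894 and 1308. sex-1, a nuclear receptor that represses xol-1, had 16.3 and overlapped peaks in both replicates, with signals of 6.27 and 6.13. Those peaks ranked 26137 and 13356 in lists of 30000, and the lowest signal in the replicate 1 list was 5.80.

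The rest of that list was weaker. tra-4, a zinc finger gene that promotes female fate, had 15.8 and a peak in replicate 1 only, with a signal of 12.2. fox-1, an RNA-binding X-signal gene, had 14.1 and a peak in replicate 2 only, with a signal of 10.3; its window spans 6112 bp over 6 positions of the 5′ end. sdc-2, which directs the complex to X, had 13.4 with signals of 7.85 and 7.75 and ranks of 15967 and 7177. xol-1 had 12.6, near the 12.3 minimum among members, and a peak in replicate 1 only, with a signal of 10.3. 4 of the 7 were thus overlapped in both replicates, though for sex-1 the replicate 1 peak was near the floor of its list. The median signal of the 7 was 15.8, beside 16.1 over all members.

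Among the other lists, the largest shares of genes with a member were in cell division, chromatin and RNA, chaperones and secretion, and translation. A member lay at 5 of 6 X-linked genes of cell division, 10 of 14 of chromatin and RNA, 8 of 12 of chaperones and secretion and 3 of 5 of translation. Thresholded members were at 2, 3, 3 and 2 of them. Over all X-linked genes the shares were 23.1% with a member and 3.08% with a thresholded one. In cell division his-24, a linker histone, had 55.6, hil-3, another, had 43.0, and cdk-4, a cyclin-dependent kinase, had 33.4. In chromatin and RNA ain-1 was followed by pab-2, a poly(A)-binding protein, at 43.7 and alg-1, a microRNA Argonaute, at 37.8. The alg-1 peak ranked 236 in replicate 2 and 3597 in replicate 1.

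In the secretory list hsp-3 was followed by dpy-23, a clathrin adaptor subunit, at 60.0 and pdi-6, a protein disulfide isomerase, at 39.4. In translation rpl-11.2 was followed by eef-1A.2, an elongation factor, at 45.9. Lists this short move by many percent with 1 gene, and their members were chosen with earlier results of these data known.

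Among lists of differentiated tissues, 2 of 17 X-linked transcription factor genes of neuron fate had a member, neither thresholded. They were ceh-37, an OTX-family homeodomain gene, at 19.1 with a peak in replicate 1 only, and sox-2 at 14.0 with a peak in replicate 2 only. Axon guidance genes had a member at 5 of 19, led by unc-115, an actin-binding protein, at 64.8. Synapse genes had one at 11 of 39, led by syd-2, a liprin of the active zone, at 55.2 and by dnj-14, a cysteine-string protein that shares its peak with glit-1, at 50.9. The axon and synapse shares lie near the 23.1% of all X-linked genes.

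Muscle genes had a member at 4 of 16, led by the actin gene act-4 at 37.0. Endoderm genes had one at 1 of 16, elt-2, the GATA factor of the intestine, at 12.5. Epidermis and matrix genes had one at 7 of 18, led by spc-1, α-spectrin, at 65.2. Signalling and timing genes had one at 11 of 20, led by nhr-48, a nuclear receptor, at 53.4 and vang-1, a planar polarity gene, at 53.2. Metabolism genes had one at 7 of 15, led by asg-2, an ATP synthase subunit, which shares its peak with glr-6, at 43.7. Thresholded members were at 1 muscle, 1 epidermis and matrix, 2 signalling and timing, 1 metabolism and no endoderm genes. Of all X-linked genes, 23.1% had a member and 3.08% a thresholded one. The muscle share of genes with a member lies near that 23.1%, the endoderm share below it and the others above it. These lists are also short, and no test of these differences was run.

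Summits lay a median of 279 bp upstream of the 5′ end of the nearest gene whose window held them, with quartiles of 548 and 100 bp upstream, and 608 (87.1%) were upstream. Thresholded members had a median of 312 bp upstream, where thresholded autosomal promoter peaks had 198 bp. More than 750 bp upstream 10.9% of members were thresholded, beside 4.35% of autosomal promoter peaks. Between 100 and 250 bp upstream the shares were 15.9% and 12.8%, and in the first 100 bp upstream 8.24% and 8.89%. In windows of 1 gene, 21 of 191 members beyond 500 bp upstream (10.99%) were thresholded, beside 44 of 926 on the autosomes (4.75%). In the 500 bp next to the 5′ end the counts were 49 of 383 members (12.8%) and 97 of 1448 autosomal peaks (6.70%), so in such windows the shares lay about as far apart near the 5′ end as far from it. Autosomal peaks in shared windows had a share of 20.9% in those 500 bp, 107 of 511.

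By annotation 443 members lay between protein-coding genes, 129 in an intron of the same gene, 52 in a coding exon, 43 in a 5′ UTR, 16 in a 3′ UTR and 15 in an intron of another gene. Of the thresholded members 66 were between genes, 7 in an intron of the same gene, 5 in a 5′ UTR and 1 in a coding exon. The summit fell inside a gene annotated in the broad class ncRNA for 14 of 79 thresholded members (17.7%) and 30 of 619 others (4.85%). Among autosomal promoter peaks the shares were 6.96% and 3.11%. The members of ftt-2, puf-9, dpy-23 and vang-1 were among those inside one. Whether those loci have a part in the signal was not tested. Members were spread along the chromosome at 25 to 55 in each full megabase, with a median gap of 15441 bp.

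The strong summits were rich in G and C. Within 50 bp of the summit thresholded members had 52.8% ± 5.73 G + C (SD over 79 peaks), against 36.1% in flanks of the same length that begin 200 bp away. All members had 41.6% ± 10.2 (SD over 698 peaks), and thresholded autosomal promoter peaks had 49.6% ± 7.24 (SD over 273 peaks). With members split into 4 equal groups by signal, from weak to strong, the mean was 38.04%, 38.5%, 40.2% and 49.6%. At 50% or more were 56 of 79 thresholded members and 108 of 619 others. The rise was also broad. At 100 bp to the left and right of the summit on the + strand thresholded members still had 49.0% and 46.7%, where thresholded autosomal promoter peaks had 40.0% and 37.9%. Thresholded X-linked peaks outside promoters had 44.9% and 45.5% there, so a broad rise was also seen on X away from promoters. The part of base composition in the signal was not tested.

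**Figure D4:**
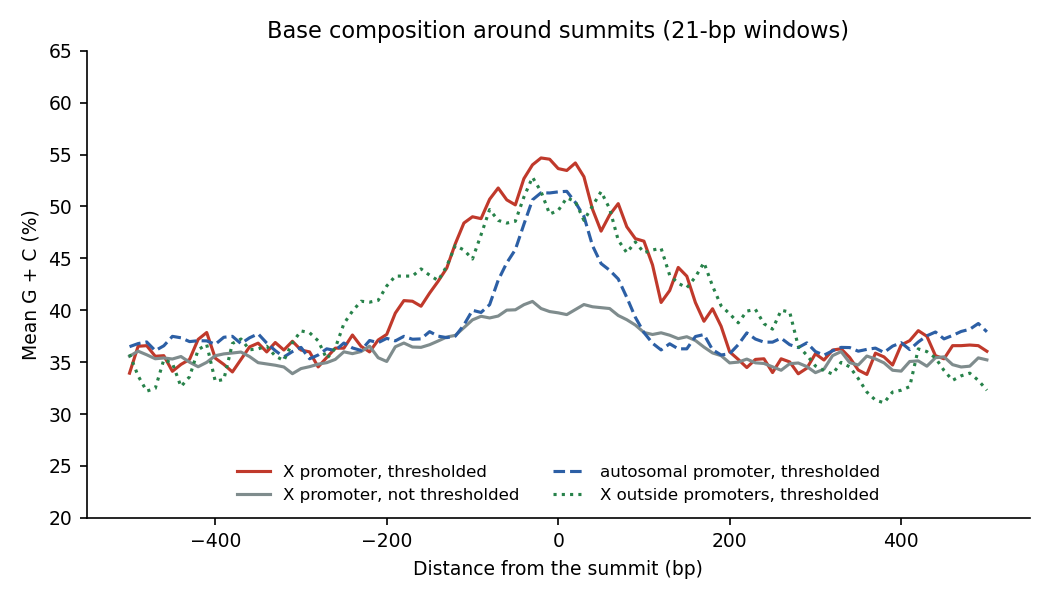
Mean G + C content (%) in 21-bp windows against distance from the summit (bp, along the + strand), for thresholded and other members, thresholded autosomal promoter peaks and thresholded X-linked peaks outside promoters. Thresholded members stand at 53.6% at the summit and 49.0% at 100 bp to its left; the other members stand at 39.7% at the summit.

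Motifs were counted on both strands within 50 bp of the summit and in the flanks, and compared with windows of the same length centred 279 bp upstream of all 2731 X-linked genes. AAGTT, the core bound by vertebrate Myt1 family proteins, was near 23.6% of member summits and in 34.2% of flanks. It was in 34.2% of the X-linked promoter windows and near 27.7% of all nuclear summits. In thresholded members it was near 2 of 79 summits (2.53%) and in 24.05% of flanks. Thresholded autosomal promoter peaks were also lower at the summit, with 9.52% of summits and 30.8% of flanks. AAAGTTT, which contains AAGTT, was near 5.30% of members, no thresholded member and 2.56% of thresholded autosomal promoter peaks. Motif matches were not split by G + C content, so its part in these shares was not tested. Absence of the letters from a window says nothing of whether the protein binds there.

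GAGAGA, the repeat seen in F09C8.2 and bet-2, was near 14.3% of member summits and in 8.88% of flanks and 7.54% of X-linked promoter windows. In thresholded members it was near 21 of 79 summits (26.6%) and in 15.2% of flanks, beside 23.4% and 7.69% for thresholded autosomal promoter peaks. TTTTTT was near 4 of 79 thresholded summits (5.06%) and in 62.0% of their flanks, beside 16.8% and 39.2% for thresholded autosomal promoter peaks. GGGCGG, a GC box, was near 1 of 79 (1.27%) of the thresholded members and 15.8% of the thresholded autosomal promoter peaks. For GCGTCTC these shares were 3.80% and 11.4%. Over all members and all autosomal promoter peaks the shares were closer, at 3.01% and 4.80% for GGGCGG and 3.72% and 4.29% for GCGTCTC. Shared windows held 6 of the 79 thresholded members and 118 of the 273 thresholded autosomal peaks, and motif matches were not split by this. No test of these differences was run. GCGCAGGG, part of the motif of dosage compensation recruitment sites, was near 3 members (0.430%), 2 of them thresholded, beside 0.175% of all nuclear summits and 0.0732% of X-linked promoter windows.

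**Figure D5:**
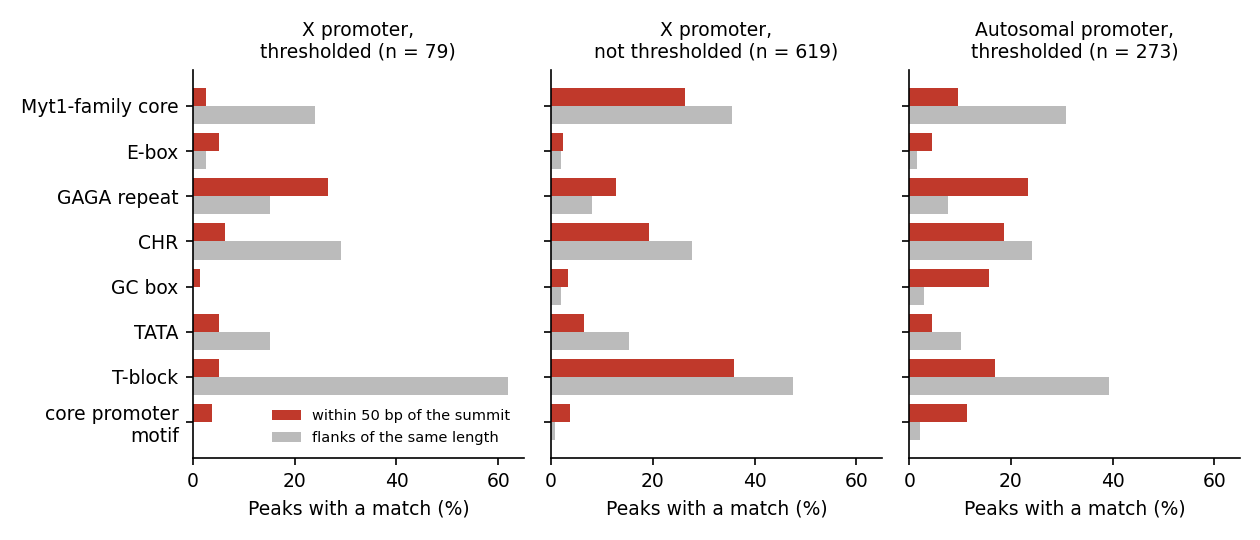
Share of peaks (%) with a match to the motifs named on the axis within 50 bp of the summit (red bars) and in flanks of the same length (grey bars), for 79 thresholded members, 619 other members and 273 thresholded autosomal promoter peaks. The T-block falls from 62.0% in flanks to 5.06% at thresholded X-linked summits. The GC box stands at 1.27% at thresholded X-linked summits and 15.8% at thresholded autosomal ones. Over all members and all autosomal promoter peaks, not drawn here, it stands at 3.01% and 4.80%.

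Members were of nearly uniform width, and most held no repeated sequence. The shape of the signal within them was not measured. 696 of the 698 were 356 bp wide, and the others were those of nspc-17, at 150 bp, and ftt-2, at 133 bp. No 32-bp word was repeated elsewhere in the genome in 662 members, and none had repeated words over more than 50% of its length. The 15 strongest had none.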

How the data were processed

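Peaks were analysed from 4 lists on ce11. Per the deposited file listings, each replicate has a relaxed list called against a control, a pooled list uses both replicates, and the thresholded list was cut from these by the irreproducible discovery rate. Values are the signal that the authors' peak caller gave each deposited peak. The aligner, caller, cutoff, extraction protocol and depth were not given in the sources used here. Counting error could not be estimated. The ce10 lists and the possible control were not used here.

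Windows used Ensembl release 115 (WBcel235); sequence was the RefSeq WBcel235 assembly. Overlap was at least 1 bp, and a member took the strongest overlapping replicate peak. Scripts used Python 3.11.15, numpy 2.4.6 and pandas 2.3.3, and were tested on simulated peaks. Members, 13 gene lists, 14 motifs and naming rule were chosen with earlier results of these data known. Named genes were those of the 15 strongest members, up to 3 per list, all sex-determination genes, those beside the threshold and those with 4 or more members; dhhc-14, epg-7 and glit-1 were named after their values were seen or share a peak. Alternatives varied the window, non-coding distance, signal, overlap rule, motif width and replicate.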

Additional observations from a re-analysis of the deposited data

How the results depend on the processing

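Counts and shares moved with the window, the signal floor and the overlap rule, and no test was run that could gain or lose a call. Distances in this section run to the nearest 5′ end of any protein-coding transcript, and their median over the 698 members was -267.5 bp. The 279 bp upstream given above was measured to the nearest gene whose window held the summit. Taking summits up to 2000 bp before or 500 bp after the 5′ end, there were 1058 members. Of these 8.70% were thresholded and 30.1% among the strongest of both replicates. A member lay at 33.1% of genes, the median percentile was 52.5 and the median distance -332 bp. With 500 bp to 100 bp, 16.6% of genes had a member, the percentile was 60.1 and the distance -189 bp. Keeping signal at or above the nuclear median left 387 members, with 20.4% thresholded, 54.5% in both replicates, 14.0% of genes and percentile 79.8. The thresholded list alone gave 79 members, 3.08% of genes, a distance of -307 bp and AAGTT near 2.53%. AAGTT was near 12.9% within 25 bp and 40.3% within 100 bp. The share in both replicates was 22.1% for summits within 100 bp, 28.2% for 50% reciprocal overlap, 6.59% for the strongest 721 and 62.6% for all peaks. Using the other replicate's strongest peaks in place of the pooled list gave 610 to 705 members and 20.3% to 23.2% of genes. Percentiles were 53.8 to 57.7 and distances -295 to -258 bp. Of these members 12.8% to 14.4% were thresholded, counted by overlap with a thresholded peak. The share reported for the pooled list counts peaks that are themselves in the thresholded list, so the shares are not directly comparable. No paired analysis was possible because there is 1 group.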
